A study of Mus musculus with 6 samples.

Results

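The genes described here encode thrombospondins and CCN proteins, together with a pair of widely used target genes of the transcriptional coactivator YAP. The 9 members were *Thbs1*, *Thbs2*, *Thbs3*, *Thbs4*, *Ccn1*, *Ccn2*, *Ccn3*, *Ankrd1* and *Amotl2*, out of 55573 gene identifiers in the count table. They were selected on their counts in the 6 libraries with the difference between the groups already known, so their fold changes, intervals and threshold calls in that comparison describe these libraries only. No p is given for them, and a call of a member is not evidence for it. All libraries came from adult C57BL/6J mice that received an adeno-associated virus, AAV2-*GFP* or AAV2-*Ezh2*, in the vitreous. In both groups the optic nerve underwent a crush injury 2 weeks later, and cells were sorted 3 days after it. There were 3 libraries per group, called GFP replicates 1 to 3 and Ezh2 replicates 1 to 3 below. *Ezh2* encodes the enzyme of the Polycomb complex PRC2 that methylates histone H3. The promoter of the viral transgenes and the number of animals behind a library were not given in the sources used here, so any p measures only the spread between these samples, which may be technical.

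Thrombospondins and CCN proteins are matricellular proteins: they are secreted into the extracellular matrix and act on cells through receptors, without forming the scaffold of the matrix. Thrombospondin-1 binds the receptors CD36 and CD47 and can activate latent TGF-beta. Glial thrombospondins are known to promote synapse formation, in part through a calcium channel subunit on neurons, and in the eye thrombospondin-1 is known as an inhibitor of blood vessel growth. CCN proteins bind integrins and heparan sulfate proteoglycans. *Ccn1* (also *Cyr61*), *Ccn2* (also *Ctgf*), *Ankrd1* and *Amotl2* are commonly read as targets of YAP and TAZ, which the Hippo kinases restrain and which bind DNA through TEAD factors. *Ccn1* is also known as an immediate early gene, one that responds within minutes to growth factors or stress.

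The promoters of the YAP targets are shown because TEAD factors bind the letters GGAATG, which read CATTCC from the opposite strand. Of the 9 members, 6 had a window in the RefSeq promoter table of build GRCm38.p6, which spans 250 bases before and 50 bases after each annotated start. *Thbs1*, *Ccn2* and *Ccn3* had none. Capitals below mark the TEAD letters, and every sequence is read along the gene's strand. The *Ccn1* sequence is the whole stretch before the start at chr3:145649986-145650235, minus strand. The others are windows of 30 bases around each match, at chr19:36120037-36120066 and chr19:36119950-36119979 (minus strand) for *Ankrd1*, chr9:102717727-102717756 (plus strand) for *Amotl2* and chr13:92794996-92795025 (minus strand) for *Thbs4*.
Ccn1: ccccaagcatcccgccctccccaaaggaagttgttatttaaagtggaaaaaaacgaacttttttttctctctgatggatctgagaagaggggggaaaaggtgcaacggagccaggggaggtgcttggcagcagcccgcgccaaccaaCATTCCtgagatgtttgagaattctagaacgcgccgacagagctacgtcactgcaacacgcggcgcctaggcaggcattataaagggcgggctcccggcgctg
Ankrd1, first match: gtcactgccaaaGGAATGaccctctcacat
Ankrd1, other match: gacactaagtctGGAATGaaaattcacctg
Amotl2: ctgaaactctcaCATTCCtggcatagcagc
Thbs4: ctgtccacctCATTCCATTCCgtctggtct

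In *Ccn1* the TEAD letters began at position -103 from the start. *Ankrd1* held them at -210 and -123, and *Amotl2* at -65. *Thbs4* held a pair at -197 and -192 that overlap by 1 base in the run shown. The windows of *Thbs2* and *Thbs3* had no match. Among all 32851 promoter windows of the table, 14.7% held the letters on either strand. The AP-1 letters TGACTCA, searched on both strands, were in none of the 6 windows and in 5.20% of all windows. The letters TATAAA, which form the core of a TATA box, began at -25 in *Ccn1* and at -126 in *Thbs2*, on either strand, against 13.6% of all windows. The letters TGACG, part of the cAMP response element, began at -58 in *Ccn1* on the opposite strand and were in 20.8% of all windows. These matches describe the reference sequence only, because no binding of a factor was measured in these libraries.

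Total counts per library ranged from 30569933 to 35971192. Levels are given as CPM, the count of a gene scaled to the total count of its library. In the study 1 Ezh2 library was excluded on principal components and clustering, and replicate 3 was inferred to be that library. Across genes, log2 CPM of Ezh2 replicate 3 correlated at 0.971 to 0.972 with the other Ezh2 libraries, whereas those correlated at 0.988 with each other. Fold changes are therefore from 5 libraries, without Ezh2 replicate 3, and are followed by those of all 6. *Ezh2* itself reached 28.8, 34.6 and 33.0 CPM in the GFP libraries and 78.0, 65.3 and 104.8 CPM in the Ezh2 libraries. The labels call the cells retinal ganglion cells (RGCs), and sorting used CD90.2, the product of *Thy1*. The RGC marker *Pou4f2* was at or below 0.0932 CPM in every library and *Pou4f1* at or below 0.6003 CPM. The 11 RGC markers summed to 144 to 180 CPM, of which *Thy1* gave 87.2 to 113.8 CPM. By contrast, 7 Muller glia markers summed to 10302 to 17383 CPM, so these libraries held RNA of other cells than RGCs.

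*Thbs1* and *Ccn1* had the largest fold changes among the members whose mRNA levels were higher in the *Ezh2* overexpression group. *Thbs1* was 3.09-fold and *Ccn1* 1.93-fold the GFP level in the 5 libraries. *Ccn2*, the closest relative of *Ccn1* in use as a YAP readout, was 1.13-fold, and *Amotl2* was 0.922-fold. *Thbs3* lay at the same mean level in both groups, *Thbs2* was 1.46-fold, and *Thbs4*, *Ccn3* and *Ankrd1* were close to the limit of detection. A gene is said to be called when its adjusted p was under 0.05 and its fold change above 1.5 by the edgeR quasi-likelihood test over all genes. By that rule 2 of the 7 members that passed the filter on low counts were called, both higher, where 3.8% of all 20241 tested genes were called in either direction. With all 6 libraries the same 2 members were called, where 2.53% of all tested genes were. Nothing is read from these shares, since the members were chosen on this contrast. In such bulk libraries, a change in the number of cells of a type and a change of RNA per cell cannot be told apart.

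**Figure D1:**
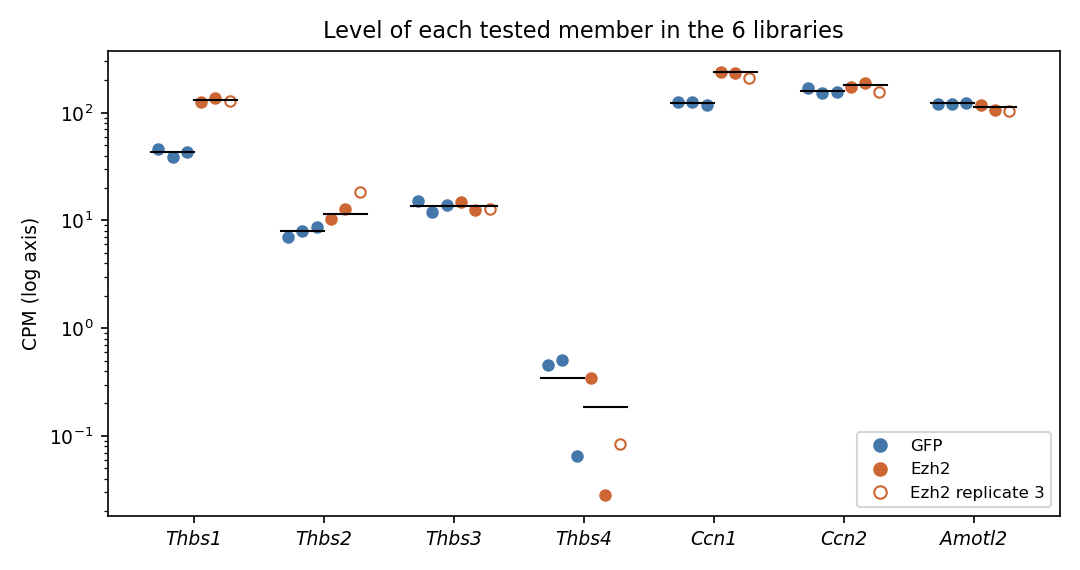
Level of each of the 7 tested members in CPM (log axis) in GFP libraries (blue) and Ezh2 libraries (orange, with replicate 3 as an open circle); each point is a library, in the order of the replicate numbers, and horizontal lines are the means of GFP replicates 1 to 3 and of Ezh2 replicates 1 and 2. *Thbs1* and *Ccn1* are separated between the groups, while *Thbs3* and *Thbs4* overlap.

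Among the thrombospondins, *Thbs1* (ENSMUSG00000040152, chromosome 2, 118111876 to 118127133, plus strand, GRCm38) encodes the trimeric thrombospondin-1. Its levels were 46.5, 39.1 and 42.9 CPM in the GFP libraries, and 126.5, 138.1 and 129.6 CPM in the Ezh2 libraries, each in the order of the replicate numbers. The lowest Ezh2 library thus lay far above the highest GFP library, and Ezh2 replicate 3 lay between the other Ezh2 libraries. Means were 42.8 ± 3.72 CPM (SD, n = 3) for GFP and 132.3 ± 8.17 CPM (SD, n = 2) for Ezh2 replicates 1 and 2. The log2 fold change was 1.64 ± 0.07 (SE), with a 95% interval of 1.502 to 1.78. With all 6 libraries it was 1.66 ± 0.09 (SE). By log2 fold change in the 5 libraries *Thbs1* held rank 100 among all 20241 tested genes. Among the 13723 tested genes of mean raw count 100 or more it held rank 33. Its exons overlap those of an antisense gene, *Gm29233*, over 208 bases, and that gene had 0 counts in every library.

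*Thbs2* (ENSMUSG00000023885, chromosome 17, 14665500 to 14694235, minus strand) encodes the thrombospondin most like thrombospondin-1, with the same trimeric build. Its levels were 7.03, 8.06 and 8.69 CPM in the GFP libraries, and 10.4, 12.8 and 18.4 CPM in the Ezh2 libraries. The groups did not overlap, but the Ezh2 libraries were spread over a wider range than the GFP libraries, with replicate 3 highest. The log2 fold change was 0.56 ± 0.14 (SE), with a 95% interval of 0.27 to 0.85, and *Thbs2* was not called. With all 6 libraries it was 0.86 ± 0.23 (SE), again not called. Its call turned on single libraries: it was called without GFP replicate 3, at a log2 fold change of 0.63, and without Ezh2 replicate 1, at 0.71. It was also called without Ezh2 replicate 1 of all 6 libraries, at 1.04. Without Ezh2 replicate 2 the log2 fold change of the 5 libraries was 0.39, and the gene was not called.

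*Thbs3* and *Thbs4* encode pentameric thrombospondins, which lack the type I repeats of the trimeric members. *Thbs3* (ENSMUSG00000028047, chromosome 3, 89215180 to 89226837, plus strand) reached 15.1, 11.9 and 13.9 CPM in the GFP libraries and 14.8, 12.4 and 12.8 CPM in the Ezh2 libraries. The groups overlapped, and the log2 fold change was 0.00 ± 0.12 (SE), with a 95% interval of -0.24 to 0.25. Its exons share 318 bases with *Mtx1* on the opposite strand. Since strand use in counting was not given in the sources used here, reads of that stretch cannot be assigned to either gene. *Mtx1* held 580 to 675 counts in GFP libraries and 771 to 968 in Ezh2 libraries. *Thbs4* (ENSMUSG00000021702, chromosome 13, 92751590 to 92794818, minus strand) had 14, 16 and 2 counts in the GFP libraries and 11, 1 and 3 counts in the Ezh2 libraries. Its log2 fold change of -0.90 ± 0.89 (SE) had a 95% interval of -2.73 to 0.93, so a change in either direction was not detectable at this depth.

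Within the family, *Thbs1* took a larger share of the counts in the Ezh2 libraries. Of all counts of *Thbs1* to *Thbs4*, it held 67.3%, 65.6% and 65.5% in GFP replicates 1 to 3, and 83.2%, 84.6% and 80.5% in Ezh2 replicates 1 to 3. There were 3.07 to 3.29 counts of *Thbs1* for each count of *Thbs3* in GFP libraries, and 8.56 to 11.1 in Ezh2 libraries. A ratio within a library does not depend on how the libraries were scaled.

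*Ccn1* (ENSMUSG00000028195, chromosome 3, 145646976 to 145649981, minus strand) encodes CCN1, a ligand of several integrins. Its levels were 125.8, 125.7 and 117.8 CPM in the GFP libraries, and 239.8, 235.5 and 211.8 CPM in the Ezh2 libraries. All 3 Ezh2 libraries were above all GFP libraries, with replicate 3 the lowest of them. Means were 123.1 ± 4.58 CPM (SD, n = 3) for GFP and 237.6 ± 3.04 CPM (SD, n = 2) for Ezh2 replicates 1 and 2. The log2 fold change was 0.96 ± 0.05 (SE), with a 95% interval of 0.86 to 1.06. With all 6 libraries it was 0.93 ± 0.06 (SE).

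*Ccn2* (ENSMUSG00000019997, chromosome 10, 24595442 to 24598683, plus strand) encodes connective tissue growth factor, a target of both TGF-beta and YAP in many cells. Its levels were 169.5, 152.3 and 155.7 CPM in the GFP libraries, and 173.2, 187.4 and 157.0 CPM in the Ezh2 libraries. Ezh2 replicate 3 lay inside the GFP range, whereas the other Ezh2 libraries lay above it. The log2 fold change was 0.19 ± 0.06 (SE), with a 95% interval of 0.08 to 0.31, which passed the adjusted p but stayed under the fold change threshold. With all 6 libraries it was 0.15 ± 0.07 (SE), with an interval of -0.01 to 0.32. The exons of *Ccn2* share 665 bases with an antisense gene, *Gm15270*, which had 39 to 73 counts per library against 4785 to 6566 counts of *Ccn2*. *Ccn3* (ENSMUSG00000037362, chromosome 15, 54745702 to 54754039) had 0, 3 and 6 counts in GFP libraries and 0, 1 and 0 in Ezh2 libraries, and did not pass the filter.

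The ratio of *Ccn1* to *Ccn2* counts was higher in every Ezh2 library than in any GFP library. These are ratios of raw counts, and the genes differ in exon length (2019 and 2861 bases). There were 0.742, 0.826 and 0.757 counts of *Ccn1* per count of *Ccn2* in GFP replicates 1 to 3, and 1.38, 1.26 and 1.35 in Ezh2 replicates 1 to 3. *Ccn1* held 42.6% to 45.2% of the counts of *Ccn1*, *Ccn2* and *Ccn3* in GFP libraries and 55.7% to 58.1% in Ezh2 libraries.

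*Amotl2* (ENSMUSG00000032531, chromosome 9, 102716672 to 102733418, plus strand) encodes an angiomotin, a junction protein that binds YAP. It reached 120.6, 121.5 and 123.9 CPM in the GFP libraries and 118.6, 106.3 and 103.1 CPM in the Ezh2 libraries. Every Ezh2 library was below every GFP library, Ezh2 replicate 1 by the smallest distance. The log2 fold change was -0.11 ± 0.05 (SE), with a 95% interval of -0.22 to 0.00, and -0.12 ± 0.07 (SE) with all 6 libraries. *Ankrd1* (ENSMUSG00000024803, chromosome 19, 36111961 to 36120099, minus strand) encodes an ankyrin repeat protein best known from heart muscle. It had 2, 9 and 4 counts in the GFP libraries and 0 in each Ezh2 library, where a count of 0 allows up to 3 counts, or 0.0834 to 0.0932 CPM. The gene did not pass the filter on low counts, and no fold change is given.

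Of the 7 tested members, 4 had no overlap between the 3 GFP and the 3 Ezh2 libraries: *Thbs1*, *Thbs2* and *Ccn1* were higher in the Ezh2 group and *Amotl2* was lower. Across all genes tested in the 6 libraries, 34.2% had groups that did not overlap. At the adjusted p alone, with no fold change threshold, 4 of the 7 members passed in the 5 libraries, namely *Thbs1*, *Thbs2*, *Ccn1* and *Ccn2*. The corresponding share of all tested genes was 17.8%.

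**Figure D2:**
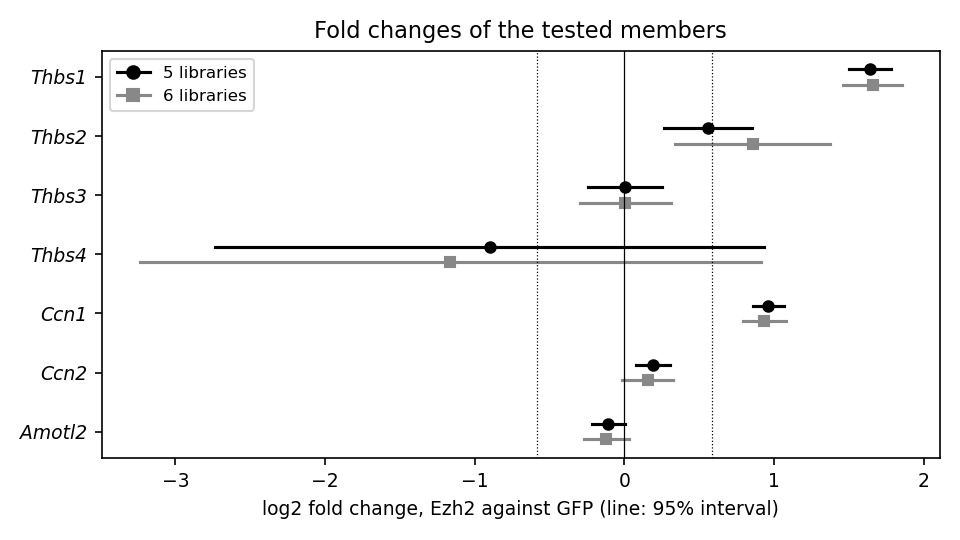
Log2 fold change of Ezh2 against GFP for the 7 tested members, from 5 libraries (black circles) and from all 6 (grey squares), with lines for the 95% intervals; dotted lines mark the 1.5-fold threshold in each direction. The intervals of *Thbs1* and *Ccn1* lie beyond the threshold, at 1.502 to 1.78 and 0.86 to 1.06 in the 5 libraries, and that of *Thbs4* runs from -2.73 to 0.93.

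To compare the members with one another, levels were divided by the summed length of each gene's merged exons, giving CPM per kilobase. In GFP libraries the order was *Ccn1* at 61.0 ± 2.27, *Ccn2* at 55.6 ± 3.18, *Amotl2* at 19.4 ± 0.270, *Thbs1* at 7.05 ± 0.612, *Thbs3* at 2.83 ± 0.341 and *Thbs2* at 1.13 ± 0.119 CPM per kilobase (SD, n = 3). *Ccn1* and *Ccn2* overlapped, since *Ccn2* reached 59.2 in GFP replicate 1 and *Ccn1* was at 58.4 in GFP replicate 3. All other neighbours in this order were separated in the GFP libraries, down to *Thbs4*, *Ankrd1* and *Ccn3*, which were each at 0.154 CPM per kilobase or less. In Ezh2 replicates 1 and 2, *Ccn1* stood at 117.7 ± 1.504 CPM per kilobase against 63.0 ± 3.51 for *Ccn2* (SD, n = 2). *Thbs1*, at 21.8 ± 1.35, came above *Amotl2* at 17.9 ± 1.38, and in each Ezh2 library *Thbs1* exceeded *Amotl2*. *Thbs3* and *Thbs2* moved closer, at 2.82 ± 0.351 and 1.65 ± 0.244, and in Ezh2 replicate 3 they were at 2.65 and 2.63 CPM per kilobase.

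The genes whose log2 CPM followed a member most closely over the 6 libraries were listed for *Thbs1*, *Ccn1* and *Ccn2*, from 12600 genes with at least 5 CPM on average. The 6 libraries form the compared groups, so such a correlation reflects mostly the distance between groups and is given as a description. For *Thbs1* the closest were *Uchl1* (r = 0.999), *Gadd45g* (0.995), *Limd1* (0.994), *Gpr157* (0.993) and *Tcirg1* (0.993). For *Ccn1* they were *Fos* (0.998), *Fblim1* (0.997), *Cd8a* (0.996), *Rpa1* (0.996) and *Irf8* (0.996). *Fos*, the immediate early gene at the head of the *Ccn1* list, stood at 297.8, 296.6 and 267.6 CPM in GFP libraries and at 590.1, 545.4 and 517.9 CPM in Ezh2 libraries. Both *Fos* and *Ccn1* were thus lowest in replicate 3 within either group. *Ccn2*, which followed the group less, was most like *Hspb6* (0.991), *Gpr37l1* (0.990), *Sephs2* (0.979), *Spcs1* (0.977) and *Unc45a* (0.974).

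The pathways around the members were read from lists of their receptors, regulators and targets. Over these lists, 15 of 116 other tested genes were called in the 5 libraries, 11 higher and 4 lower, where 3.8% of all tested genes were called. With all 6 libraries 16 were called, against 2.53% of all tested genes, and this count was 7 without GFP replicate 1 and also 7 without GFP replicate 3. The lists were chosen with earlier results of these data known, so an adjusted p printed for a listed gene is a description and no independent evidence. No difference between lists was tested. All tested genes together had a median log2 fold change of -0.01. At the adjusted p alone, 52 of the 116 genes passed, 35 higher and 17 lower, where 17.8% of all 20241 tested genes did. That share belongs beside each count at the adjusted p alone given for a list below.

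Of the relatives of the members, *Comp*, *Ccn4* and *Ccn5* were tested and none was called, with log2 fold changes of -0.01 ± 0.36, -0.14 ± 0.23 and -0.98 ± 0.75 (SE). *Ccn6* had a count in 1 library only and was not tested. Of 20 tested genes for receptors of thrombospondins and CCN proteins, 1 was called, and the median log2 fold change was 0.06. At the adjusted p alone 9 passed, 7 higher and 2 lower. The called gene was *Itga6*, which encodes the integrin alpha 6 chain bound by CCN1. *Itga6* rose from 66.6, 73.0 and 67.6 CPM in GFP libraries to 104.9 and 107.4 CPM in Ezh2 replicates 1 and 2, and stood at 91.7 CPM in replicate 3. On the log2 scale this was a fold change of 0.63 ± 0.06 (SE, edgeR adjusted p of 2.82e-09). Below the fold change threshold, the integrin genes *Itga4* and *Itgb2* had log2 fold changes of 0.58 ± 0.07 and 0.43 ± 0.05 (SE), and *Nlgn1*, which encodes a synaptic adhesion protein, -0.36 ± 0.05 (SE). The others that passed the adjusted p alone were *Calr*, *Itgb1*, *Itgb5* and *Scarb2*, from 0.18 to 0.24, and *Itgav* at -0.18. The thrombospondin receptors first in the list did not pass, with log2 fold changes of -0.10 ± 0.13 for *Cd36*, -0.00 ± 0.06 for *Cd47* and 0.04 ± 0.05 (SE) for *Lrp1*.

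None of the 20 tested genes of the Hippo kinases, YAP, TAZ and TEAD was called in either fit, and 4 of them, *Stk4*, *Mob1a*, *Amot* and *Yap1*, are shown with their values since the first 3 passed the adjusted p alone. *Stk4*, a Hippo kinase, had a log2 fold change of 0.25 ± 0.05 (SE), the kinase cofactor gene *Mob1a* 0.26 ± 0.08 (SE) and the angiomotin *Amot* -0.31 ± 0.08 (SE). *Yap1*, which encodes YAP, had -0.14 ± 0.05 (SE), *Wwtr1*, which encodes TAZ, -0.05 ± 0.06 (SE), and *Tead1* -0.11 ± 0.06 (SE). Among 20 other YAP and TAZ target genes 1 was called, with a median log2 fold change of 0.07, and 6 passed the adjusted p alone, 3 in each direction. It was *Igfbp3*, a secreted binding protein of insulin-like growth factors, at 2.18 to 3.01 CPM in GFP libraries and 5.11 to 5.31 CPM in Ezh2 libraries. On the log2 scale its fold change was 1.08 ± 0.22 (SE, edgeR adjusted p of 0.000693). *Myof* and *Asap1*, both common YAP readouts, had log2 fold changes of 0.05 ± 0.05 and 0.10 ± 0.07 (SE) and were not called. *Lats2*, which is in this list and the Hippo list, had -0.00 ± 0.09 (SE) and was not called.

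Genes of TGF-beta signalling, which thrombospondin-1 can activate and which can induce *Ccn2*, gave 1 called gene of 20, and 10 passed the adjusted p alone, 6 higher and 4 lower. *Ltbp2*, which encodes a microfibril protein named for the latent TGF-beta binding protein family, fell by 1.01 on the log2 scale (SE 0.14, edgeR adjusted p of 4.06e-06). *Tgfb1* was at 23.0 CPM in each GFP library and at 35.96, 31.2 and 50.04 CPM in Ezh2 replicates 1 to 3. Its log2 fold change of 0.55 ± 0.08 (SE) was under the fold change threshold in the 5 libraries, and at 0.81 with all 6 it was called. *Tgfb2* and *Tgfb3* had log2 fold changes of -0.15 ± 0.05 and -0.38 ± 0.10 (SE). The median of the list was 0.03.

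Of 20 tested genes in the list of SRF, MRTF and immediate early genes 8 were called, all higher, where 3.8% of all tested genes were called, and the fit to all 6 libraries also called 8. The list had a median log2 fold change of 0.47, and 16 genes passed the adjusted p alone, 15 of them higher. *Fosb*, *Ier2* and *Fos* rose by 1.22 ± 0.11, 1.11 ± 0.07 and 0.99 ± 0.05 (SE) on the log2 scale. *Egr1*, *Junb* and *Atf3* rose by 0.95 ± 0.06, 0.88 ± 0.05 and 0.77 ± 0.09 (SE). All of these are immediate early genes. The other called genes were *Zfp36* at 0.74 ± 0.06 and *Jun* at 0.61 ± 0.05 (SE). *Srf* itself, at 0.40 ± 0.09 (SE), and the coactivators *Mrtfa* at 0.14 ± 0.07 and *Mrtfb* at -0.20 ± 0.06 (SE) were not called. Of these, *Srf* and *Mrtfb* passed the adjusted p alone. The immediate early genes of the list that were not called ranged from 0.05 ± 0.11 for *Nr4a1* to 0.58 ± 0.12 (SE) for *Egr2*. In Ezh2 replicates 1 to 3 *Nr4a1* was at 20.4, 15.4 and 70.3 CPM, against 16.0 to 19.5 CPM in GFP libraries.

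The matricellular proteins of other families moved in both directions. Of 16 tested genes, 1 was called higher and 3 lower, with a median log2 fold change of -0.16. At the adjusted p alone 9 passed, 2 higher and 7 lower. *Spp1*, which encodes osteopontin, had 6.77 to 8.21 CPM in GFP libraries and 105.5, 158.8 and 88.0 CPM in Ezh2 replicates 1 to 3, a log2 fold change of 4.12 ± 0.28 (SE, edgeR adjusted p of 0.00441). The proteoglycan genes *Spock3* and *Spock1* fell by 1.79 ± 0.27 and 0.79 ± 0.13 (SE) and the fibulin gene *Fbln1* fell by 1.54 ± 0.14 (SE) on the log2 scale. *Sparc*, the founding member of the SPARC family, had 1340 to 1378 CPM in GFP libraries and 963.7 to 1230 CPM in Ezh2 libraries, and was not called. *Sparcl1* had a log2 fold change of 0.23 ± 0.22 (SE) and was not called.

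**Figure D3:**
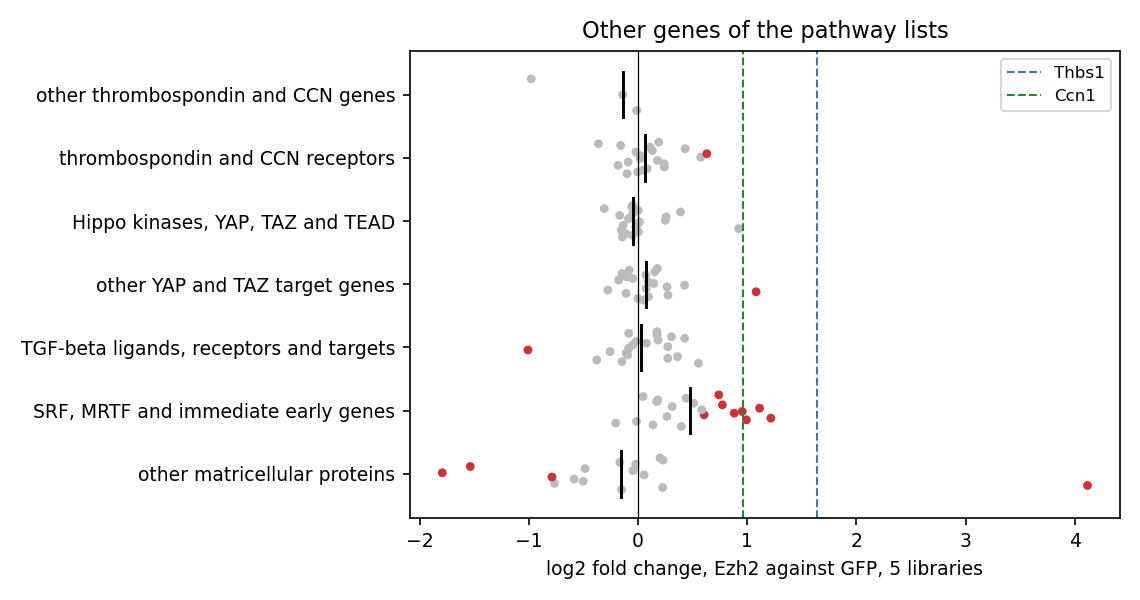
Log2 fold change of Ezh2 against GFP in 5 libraries for the other genes of each pathway list; each point is a tested gene, red if called, black bars are list medians, and dashed lines mark *Thbs1* at 1.64 and *Ccn1* at 0.96. In the list of SRF, MRTF and immediate early genes 8 of 20 points are red, and none of the 20 Hippo genes is red.

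Markers of some other cell types moved with the groups. Of the macrophage and monocyte markers, 4 of 10 tested were called higher, and the list summed to 1138 to 1270 CPM in GFP libraries, 2520 to 3026 CPM in Ezh2 replicates 1 and 2 and 2044 CPM in replicate 3. Most of that difference came from *Lyz2*, at 329 to 379 CPM in GFP libraries and 1406, 1868 and 1223 CPM in Ezh2 replicates 1 to 3. *Csf1r* stood at 499 to 545 CPM in GFP libraries and at 615, 613 and 447 CPM in Ezh2 replicates 1 to 3. *Lyz2*, *Ms4a7*, *Cd68* and *Mrc1* rose by 2.19, 1.55, 1.35 and 0.66 on the log2 scale, whereas *Csf1r* had a log2 fold change of 0.26 and *Adgre1* 0.57. Among 7 microglia markers *Fcrls* was called higher and *Sall1* lower, and the list summed to 708 to 808 CPM in GFP libraries and 616 to 949 CPM in Ezh2 libraries. Platelets store thrombospondin-1, and the platelet list summed to 3.602 to 4.59 CPM in GFP libraries and 7.05 to 9.95 CPM in Ezh2 libraries. In it, *Ppbp* and *Gp1bb* were at 0 counts in every library, *Gp9* was at or below 0.278 CPM, and *Pf4* was called higher, from at most 0.474 CPM to at least 1.68 CPM. Only 3 of the 8 platelet markers were tested. *Itga2b*, which gave most of the sum, had a log2 fold change of 0.55 ± 0.22 (SE) and was not called. Whether platelets were among the sorted cells was not tested.

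None of 7 endothelial markers was called. *Cdh5* and *Cldn5* stood at 2.03 to 4.65 CPM. The list summed to 3213 to 3379 CPM in GFP libraries. In Ezh2 replicates 1 and 2 the sum was 2924 to 2940 CPM, and in replicate 3 it was 2334 CPM. These sums came mainly from *Kdr*, at 1720 to 2429 CPM, and *Flt1*, at 588 to 926 CPM, so they follow those genes and not the list. *Kdr* and *Flt1* had log2 fold changes of -0.12 ± 0.05 and -0.29 ± 0.05 (SE), and *Flt1* passed the adjusted p alone. The other markers were at most 16.71 CPM, with log2 fold changes from -0.10 ± 0.20 for *Esam* to 0.30 ± 0.29 (SE) for *Tek*. Which cells held the RNA of *Kdr* and *Flt1* was not tested. Mural and fibroblast markers, 11 in all, gave 1 called lower, *Col1a1*, and sums of 553 to 623 CPM in GFP libraries and 502 to 585 CPM in Ezh2 libraries. The 7 Muller glia markers gave no call in the 5 libraries, and 1 was called lower with all 6. Their summed level was 16802 to 17383 CPM in GFP libraries, 12952 to 13188 CPM in Ezh2 replicates 1 and 2 and 10302 CPM in replicate 3. The median log2 fold change of the list was -0.28 in the 5 libraries. *Glul* at -0.49 ± 0.05 and *Rlbp1* at -0.31 ± 0.05 (SE) passed the adjusted p alone. Of 5 astrocyte markers *Gfap*, which Muller glia also express after injury, was called higher at 1.01 ± 0.08 (SE), with list sums of 2282 to 2409 CPM in GFP libraries and 1940 to 2534 CPM in Ezh2 libraries. The T cell list had 1 call of 8, *Cd8a*, and summed to 402 to 428 CPM in GFP libraries, 515 to 539 CPM in Ezh2 replicates 1 and 2 and 849 CPM in replicate 3. None of 6 B and plasma cell markers was called, with sums of 464 to 515 CPM in GFP libraries and 289 to 507 CPM in Ezh2 libraries. Of 10 tested RGC markers *Tubb3* was called higher, at 0.71 ± 0.15 (SE), and the sums were 144 to 147 CPM in GFP libraries and 166 to 180 CPM in Ezh2 libraries. The part of any of these cells in the levels of *Thbs1* and *Ccn1* was not tested.

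**Figure D4:**
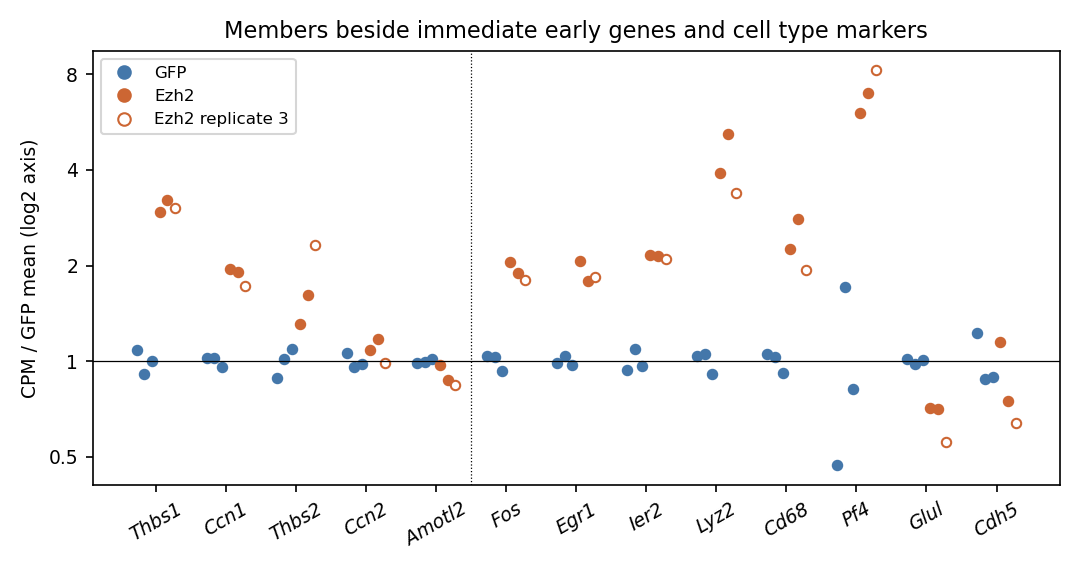
Level in each library relative to the GFP mean (log2 axis) for 5 members, left of the dotted line, and for immediate early genes (*Fos*, *Egr1*, *Ier2*), macrophage markers (*Lyz2*, *Cd68*), the platelet marker *Pf4*, the Muller glia marker *Glul* and the endothelial marker *Cdh5*; GFP libraries are blue, Ezh2 libraries orange and Ezh2 replicate 3 open. *Thbs1* lies at about the same height in all 3 Ezh2 libraries, with 3.03 in replicate 3, while *Lyz2* and *Cd68* are lowest there among the Ezh2 libraries and *Thbs2* and *Pf4* are highest. The genes shown do not stand for their whole lists. Of genes not shown, the macrophage marker *Csf1r* had a log2 fold change of 0.26 and *Flt1*, of the endothelial list, -0.29. The platelet markers *Ppbp* and *Gp1bb* had 0 counts.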

How the data were processed

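RNA of sorted cells was made into stranded total RNA libraries, per the labels. The authors deposited a table of raw counts, 1 row per Ensembl gene and 1 column for each of 6 libraries, with 0 sample columns left unmatched. The submitters' processing notes name STAR 2.7.0d and GRCm38. The counting program, annotation release and strand setting were not given in the sources used here. Of 55573 identifiers, 55480 matched GENCODE release M21, which supplied symbols, coordinates and exon lengths. Both the members and the gene lists were chosen with earlier results of these data known.

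Ezh2 replicate 3 was left out of the main comparison, as inferred for the study, and all 6 libraries were an alternative. After filterByExpr and TMM scaling, counts were tested by quasi-likelihood in edgeR 4.0.16 (R 4.3.3), two-sided, with Benjamini-Hochberg adjustment over all tested genes. A call needed both adjusted p < 0.05 and more than 1.5-fold change. Robust estimation in that fit was not part of the planned design. It was switched on after the counts of called genes under several settings had been seen, because it gave the count of an earlier analysis of these data, and the fit without it is among the alternatives. SE of log2 fold changes were derived from the F statistic. CPM used library totals, with mean ± SD. A count of 0 allows 3 counts, or 0.0834 to 0.0981 CPM, which covers counting error only. Named genes were all members and the 5 genes most like *Thbs1*, *Ccn1* and *Ccn2* by Pearson's r of log2 CPM (prior count 2). From each pathway list, every called gene up to 6 by size and its first 3 were named. *Stk4*, *Mob1a*, *Amot*, *Itga4*, *Itgb2*, *Nlgn1*, *Itgb1*, *Itgb5*, *Itgav*, *Calr*, *Scarb2*, *Zfp36*, *Jun*, *Tgfb3* and some markers were named after their values were seen. So were *Nr4a1* and *Egr2*. The fit was tested on simulated counts. Within each group, every pair of libraries differed by more than sampling noise. Other alternatives were each library left out, DESeq2 1.42.0, limma-voom (limma 3.58.1), a block on the replicate number, other scaling, removal of the 10 most abundant genes, other filters (none, or 50 counts on average) and other thresholds. Plots were made with matplotlib 3.10.9.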

Additional observations from a re-analysis of the deposited data

Results flagged for a closer look

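Ezh2 replicate 3 did not enter the 5-library comparison. In it *Thbs1* was at 129.6 CPM, *Thbs2* at 18.4 CPM and *Ccn1* at 211.8 CPM, each above the highest GFP library, which held 46.5, 8.69 and 125.8 CPM. This library was compared with the same GFP libraries as the others, so it is no separate test of the difference.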

How the results depend on the processing

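*Thbs1* and *Ccn1* were called in all 23 alternatives, with log2 fold changes of 1.56 to 1.72 and 0.90 to 0.97. Since they were selected on this contrast and the alternatives reuse the same counts, this does not show that the calls are stable. *Thbs2* was called in 6 of 23, at 0.39 to 1.04 over all of them. *Ccn2* ranged from 0.10 to 0.26, *Amotl2* from -0.17 to -0.04 and *Thbs4* from -3.40 to -0.01, and *Thbs3*, from -0.11 to 0.12, took the other sign in 6. The number of called genes was 770 in the 5 libraries and 499 with all 6, 396 with all 6 and the replicate block, 180 with glmTreat, which tests against the fold change threshold itself, and 3605 at the adjusted p alone. Leaving out single libraries gave 110 to 794 called genes, the lowest without GFP replicate 1 of all 6. At the adjusted p alone, 4 of the 7 tested members and 52 of the 116 tested pathway genes passed, against 17.8% of all tested genes. When single libraries were left out with at least 2 kept per group, 2 to 3 members and 7 to 18 pathway genes were called. In those fits 110 to 794 genes were called in all, out of 19851 to 20297 tested. With glmTreat 8 pathway genes were called. The count of pathway genes was 7 without GFP replicate 1 and also without GFP replicate 3 of all 6. DESeq2 called 682 genes and limma-voom 745. The fit without robust estimation, chosen after seeing the data, called 754 genes, the same number of members (2) and the same number of pathway genes (15). The causes of these shifts were not tested.

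Same-numbered libraries did not deviate together, with correlations of -0.0055, -0.020 and -0.011, and no pairing was taken from the replicate numbers. Deviations were from the mean of all 3 libraries of a group, Ezh2 replicate 3 included. The distance of that library from the others enters every Ezh2 deviation, so these correlations cannot decide whether the libraries were paired. With the replicate block 722 genes and 3 members were called in the 5 libraries, *Thbs2* at a log2 fold change of 0.63, and at 0.81 with all 6. Depth limited *Thbs4*, *Ccn3* and *Ankrd1*, each with at most 16 counts per library.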
